A study of Homo sapiens with 6 samples.

Results

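The nuclear pore and mRNA export genes described here are 35 genes for the nucleoporins of the pore and for the factors that act on cargo there. They were given as a list of gene symbols, with GLE1 to be set against the rest, and were found by symbol through the Entrez gene numbers of the expression tables. All 35 were among the 17149 genes listed, and all 35 passed the expression minimum, as did 11135 genes of the whole series. MDA-MB-231 cells, an established human line of triple negative breast cancer, were transfected with siRBCK1, a small interfering RNA against RBCK1, or with siControl, a negative control. RBCK1 encodes an E3 ubiquitin ligase, and the study asked what its silencing does to gene expression in this line. RNA from the siRBCK1 and siControl cells was sequenced 48 h after transfection, in 3 libraries per group. Both groups are the same cell line with no other allele or agent, and which of the study's RBCK1 siRNAs was used for sequencing is not given in the sources used here. Nothing in the sources ties the replicates to separate cultures, and the p-values therefore cover only the spread among these libraries, which may be technical.

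The nuclear pore complex is a ring-shaped assembly that spans the nuclear envelope and lets cargo pass between the nucleus and the cytoplasm. Its scaffold is built from the Y complex and the inner ring, membrane nucleoporins anchor it, nucleoporins rich in phenylalanine and glycine fill the channel, and a basket on the nuclear side and filaments on the cytoplasmic side receive cargo. Bulk mRNA is carried through the channel by the NXF1 and NXT1 receptor, and at the cytoplasmic filaments a DEAD-box helicase, DDX19B in human cells, removes export proteins from it. GLE1 activates this helicase together with inositol hexakisphosphate, a mechanism worked out mainly in yeast, and is held at the pore by NUP42 and NUP155. GLE1 is also known for roles in translation initiation and termination.

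Expression levels are in FPKM, the fragments of a gene scaled to its length and to the fragments of the library, so that levels of different genes can be compared per length. The targeted gene was lower in each siRBCK1 library. RBCK1 was at 41.53, 46.15 and 45.61 FPKM in the siRBCK1 libraries, against 64.96, 63.62 and 73.37 FPKM in the siControl libraries. The siRBCK1 mean was 66% of the siControl mean, and the log2 fold change was -0.59 (SE 0.07, limma adjusted p = 6.55e-05). The library sums of FPKM were 587248.4, 594194.1 and 590315.8 in the siRBCK1 libraries, against 631968.6, 614082.0 and 659065.0 in the siControl libraries. Every siRBCK1 sum was thus below every siControl sum, and siControl replicate 3 had the largest. The calls after the libraries were rescaled are given below, and the cause of this difference was not tested. Without read totals in the tables the libraries' depth is unknown. Mesenchymal markers of the line were present, with VIM at 1893.74 FPKM or more in every library, while ESR1, PGR and CDH1 did not exceed 0.25 FPKM. ERBB2 was at 18.42, 18.09 and 18.13 FPKM in the siRBCK1 libraries, against 13.42, 14.04 and 11.66 FPKM in the siControl libraries, and EPCAM was detected in all of them. Of the markers of other cell types, PTPRC, CD3E, PECAM1, CDH5 and DCN did not exceed 0.35 FPKM in any library. Low levels of CD14, COL1A1 and PDGFRB were listed, with COL1A1 the highest at 5.84, 5.89 and 5.86 FPKM in siRBCK1 and 4.01, 4.2 and 3.7 FPKM in siControl libraries, and their part in the results was not tested. Among all 11135 genes tested, 36.8% passed as higher and 17.1% as lower in siRBCK1 cells at the threshold used throughout, a limma adjusted p under 0.05. Their median log2 fold change was 0.11.

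Most nuclear pore genes were higher after RBCK1 depletion, and none was lower. By that threshold 23 of the 35 genes rose, 0 fell and 12 missed it, whereas the shares over all tested genes were 36.8% higher and 17.1% lower. At an unadjusted p under 0.05, 25 of the 35 genes passed, against 59.5% of all tested genes, and the 2 genes with a negative log2 fold change, NUP214 and NUP210, were not among them. The groups did not overlap for 25 of the 35 genes, all of them higher in siRBCK1 libraries, against 42.7% of all tested genes without overlap and higher and 20.1% without overlap and lower. The median log2 fold change of the 35 genes was 0.27, and 26 of them lay above the median of all tested genes. These changes were small apart from that of GLE1, since 1 of the 35 genes passed both an adjusted p under 0.05 and a fold change of 1.5 on this scale, against 5.86% of all tested genes that did so as higher and 2.63% as lower. In RNA from a whole culture, a change in the share of cells that express a gene and a change in the RNA per cell cannot be told apart.

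The count of rises, and the absence of falls, depended on how the libraries were scaled. With the values as deposited the median of all tested genes was 0.11 above 0, and it was 0.01 once the libraries were quantile normalized, 0.02 once they were scaled by their trimmed means and 0.0048 once the trend of each library with transcript length and GC content was taken out. On those scales 18, 17 and 17 of the 35 genes were higher, and 1, 1 and 3 were lower. Over all tested genes the shares of higher and lower genes were 25.0% and 24.3% with quantile normalization, 25.3% and 25.0% with trimmed-mean scaling, and 25.3% and 25.5% without the trend. Each gene called higher on one of these scales was also called higher on the deposited values. The median of the 35 genes stayed above that of all tested genes, at 0.16, 0.17 and 0.14. NUP214 was the gene called lower on all of these scales.

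**Figure D1:**
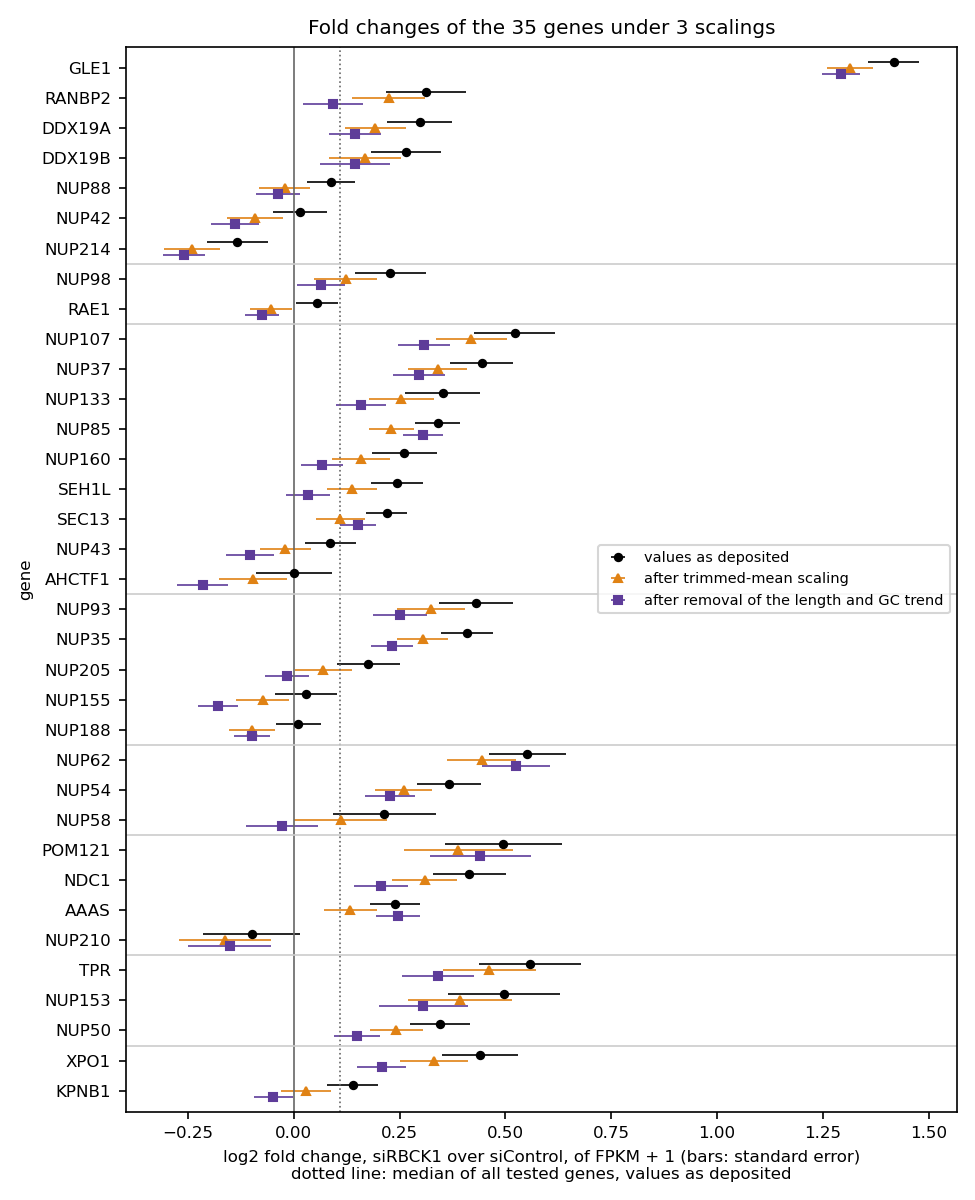
Log2 fold change of FPKM + 1, siRBCK1 over siControl, on the x axis for each of the 35 genes, grouped by role, with the values as deposited (black circles), after trimmed-mean scaling (orange triangles) and after removal of the length and GC trend (purple squares). Bars are standard errors, and the dotted line is the median of all tested genes at 0.11; GLE1 lies at 1.42 on the deposited values, while the other 34 genes lie between -0.13 and 0.56.

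The spread of the siControl libraries bears on these values. Among the siControl libraries, replicate 3 was the lowest for 28 of the 35 genes, and it was the lowest of its group for 53.7% of all tested genes. Replicate 2 was the highest siControl library for 19 of the 35 genes, against 40.1% of all tested genes. The median coefficient of variation over the 35 genes was 4.09% in siRBCK1 libraries and 9.28% in siControl libraries, against 4.72% and 8.05% over all tested genes. It was larger in siControl libraries for 31 of the 35 genes. Across the 35 genes, the siControl coefficient of variation ran with the length of the longest transcript (Spearman's rho 0.65, a description over genes that share the same libraries). The log2 fold change did not run with length in the same way, with a rho of -0.09 over the 35 genes and 0.22 over 11074 genes with a known length. The 35 genes are long, with a median of 5233 bases against 3599.5 bases over all tested genes. Without siControl replicate 3, 22 of the 35 genes were higher and 1, NUP214, was lower (log2 fold change -0.19, limma adjusted p = 0.0301). The part of this library and of transcript length in the remaining rises was not tested further.

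GLE1 stood apart from every other gene of the set. GLE1 (Entrez gene 2733) spans positions 128504700 to 128542288 of chromosome 9, plus strand, in the GENCODE annotation of GRCh38. It was at 26.72, 26.68 and 26.66 FPKM in the siRBCK1 libraries, against 9.40, 9.70 and 9.01 FPKM in the siControl libraries. Every siRBCK1 library lay far above every siControl library, and the libraries of each group lay close together. The means were 26.7 ± 0.0306 FPKM in siRBCK1 cells and 9.37 ± 0.346 FPKM in siControl cells (SD, n = 3 each), a ratio of 2.85. The log2 fold change was 1.42 (SE 0.06, limma adjusted p = 9.97e-08). Among all 11135 tested genes, 12 had a larger log2 fold change than GLE1 and 13 had a smaller p.

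Measured against the rest of the set, the rise of GLE1 was of another size. The next largest log2 fold change among the 35 genes was 0.56, for TPR, which is 0.86 below that of GLE1. GLE1 lay 1.15 above the median of the other 34 genes and 1.31 above the median of all tested genes. The ratio of the GLE1 level to the median level of the other 34 genes was 1.19, 1.24 and 1.15 in the siRBCK1 libraries, against 0.491, 0.470 and 0.549 in the siControl libraries. GLE1 therefore moved in rank within the set, being the 14th, 13th and 14th most abundant of the 35 genes in the siRBCK1 libraries and the 29th, 29th and 28th in the siControl libraries. A ratio within a library does not depend on the scaling of that library as a whole. On the other scales the log2 fold change of GLE1 was 1.30 (quantile normalization), 1.31 (trimmed-mean scaling) and 1.29 after removal of the length and GC trend. With each library left out in turn it ranged from 1.39 to 1.44.

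**Figure D2:**
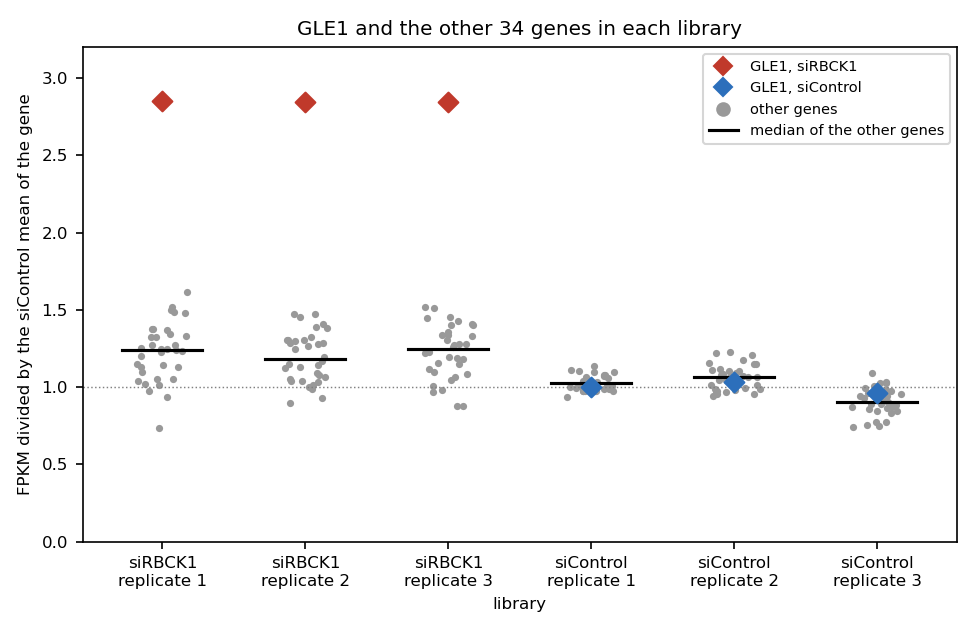
Level of each gene in each library divided by its siControl mean (y axis, FPKM ratio), with GLE1 as diamonds (red in siRBCK1, blue in siControl), the other 34 genes as grey points and their median as a bar. GLE1 was at 2.85 in the 3 siRBCK1 libraries, above the highest of the other genes at 1.62. In the siControl libraries it was at 1.00, 1.04 and 0.962, where the values of every gene average 1 because of the division.

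The genes beside GLE1 on the chromosome moved less or in the other direction. ODF2, a centrosome protein gene upstream of GLE1, was at 23.25, 22.01 and 22.36 FPKM in the siRBCK1 libraries, against 16.82, 18.11 and 13.28 FPKM in the siControl libraries (log2 fold change 0.47, limma adjusted p = 0.00209). SPTAN1, which encodes a non-erythroid spectrin chain and lies downstream, was at 49.13, 48.48 and 47.72 FPKM in the siRBCK1 libraries, against 53.30, 58.50 and 54.10 FPKM in the siControl libraries (log2 fold change -0.19, limma adjusted p = 0.0142). ODF2 rose by a smaller step and SPTAN1 fell. No run of 50 bases of the longest GLE1 transcript occurred in the same direction in a transcript of another gene (0%). The opposite direction was not searched. The span of a gene annotated on the opposite strand overlaps that of GLE1, and whether the counting used strand is not given in the sources used here. Reads from any shared exon bases could therefore not be told apart, but whether the exons overlap was not examined. Spans overlap in this way for 22 of the 35 genes, GLE1 among them. A gene on the same strand overlaps the span of 14 of the 35 genes.

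The other genes of the cytoplasmic face rose less or did not pass the test. With GLE1 left out, 3 of 6 were higher and 0 were lower, beside 36.8% higher and 17.1% lower of all tested genes. The median log2 fold change of these 6 genes was 0.18. The genes that rose were RANBP2 and the helicase pair DDX19A and DDX19B. RANBP2, the large nucleoporin of the cytoplasmic filaments, was at 4.42, 4.33 and 4.86 FPKM in the siRBCK1 libraries, against 3.43, 3.99 and 3.0 FPKM in the siControl libraries. Its groups did not overlap, and its log2 fold change was 0.31 (SE 0.10, limma adjusted p = 0.0179), a call lost without siRBCK1 replicate 3 (adjusted p = 0.0792), with quantile normalization (0.142) and after removal of the length and GC trend (0.297). Of the runs of 50 bases in its longest transcript, 26.62% also occur in the RGPD genes, which arose from copies of it. Of these, RGPD5 averaged 2.18 FPKM in siRBCK1 and 1.00 FPKM in siControl cells, but its siControl libraries were spread, at 1.7, 1.02 and 0.28 FPKM. RGPD8 averaged 0.873 and 0.77 FPKM, and RGPD3, which holds the most of these runs, 0.243 and 0.163 FPKM. Reads of RANBP2 and its copies may thus have been split.

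DDX19B encodes the helicase that GLE1 activates, and DDX19A is its close paralog on the same chromosome. DDX19A was at 19.11, 16.20 and 18.30 FPKM in the siRBCK1 libraries, against 13.99, 15.31 and 13.71 FPKM in the siControl libraries (log2 fold change 0.30, SE 0.08, limma adjusted p = 0.00755). DDX19B was at 7.0, 8.02 and 7.87 FPKM in the siRBCK1 libraries, against 5.78, 6.02 and 6.75 FPKM in the siControl libraries (log2 fold change 0.27, SE 0.08, limma adjusted p = 0.0206). The siRBCK1 libraries lay above the siControl libraries for both, and the DDX19B call was lost with 3 of the 6 libraries left out in turn. The DDX19B call was also lost on each of the other scales, with log2 fold changes of 0.11 with quantile normalization, 0.17 with trimmed-mean scaling and 0.14 without the length and GC trend, and the DDX19A call was lost on the last of these, at 0.14. The 2 genes are 94.6% identical over 1430 aligned coding bases, and of the 50-base runs of their longest transcripts, 13.13% of those of DDX19A occur in DDX19B and 21.19% of those of DDX19B occur in DDX19A. With a gene annotated across both on the same strand and any other gene counted, the shares were 31.1% for DDX19A and 40.82% for DDX19B, so their separate values are uncertain. The 60 bases with the most differences are shown because reads here can be told apart. They are coding positions 439 to 498 of DDX19A and 457 to 516 of DDX19B, counted from the first base of the start codon and read from GENCODE transcripts on chromosome 16, and capitals mark the 14 bases that differ.
DDX19A: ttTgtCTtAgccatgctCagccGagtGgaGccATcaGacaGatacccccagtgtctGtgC
DDX19B: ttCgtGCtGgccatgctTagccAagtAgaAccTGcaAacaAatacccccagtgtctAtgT
Elsewhere the coding sequences share longer runs, and a read inside such a run fits both genes equally.

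The genes for the remaining partners of GLE1 and the helicase at the cytoplasmic face did not pass the test. NUP214, which binds the helicase and tethers it at the pore, was at 21.64, 20.75 and 20.32 FPKM in the siRBCK1 libraries, against 22.57, 25.44 and 21.25 FPKM in the siControl libraries. These groups overlapped, and NUP214 had the lowest log2 fold change of the set, at -0.13 (adjusted p = 0.138 from limma). It was called lower with quantile normalization and with trimmed-mean scaling (-0.24 on each), and after removal of the length and GC trend (-0.26). NUP88, the partner of NUP214, gave a log2 fold change of 0.09 (limma adjusted p = 0.208). NUP42, the nucleoporin that binds GLE1, was at 22.08, 22.38 and 24.08 FPKM in siRBCK1 libraries, against 23.33, 21.23 and 23.24 FPKM in siControl libraries, with overlapping groups and a log2 fold change of 0.02 (adjusted p = 0.851). Within the GLE1 module of the pore, then, the level of GLE1 changed by a ratio of 2.85 while those of NUP214, NUP88 and NUP42 changed by ratios of 0.905, 1.06 and 1.01.

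NUP98 and RAE1 form a pair that takes part in mRNA export, and the NUP98 gene also encodes NUP96, a subunit of the Y complex, as part of the same precursor. NUP98 was at 22.71, 20.47 and 21.10 FPKM in the siRBCK1 libraries, against 18.27, 20.31 and 16.04 FPKM in the siControl libraries. The groups were separated by a narrow gap, and the log2 fold change was 0.23 (SE 0.08, limma adjusted p = 0.0386). The NUP98 call was lost with 5 of the 6 libraries left out in turn, and on each of the other scales. RAE1 gave a log2 fold change of 0.05 (limma adjusted p = 0.361), although its 3 siRBCK1 libraries lay above its siControl libraries.

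The Y complex, the largest group here, is the outer scaffold of the pore. Of its 9 genes, 7 rose, 0 fell and 2 missed the threshold, beside 36.8% higher and 17.1% lower of all tested genes. The median log2 fold change of the 9 genes was 0.26. NUP107, which sits in the stem of the Y, rose most, with 15.03, 13.74 and 14.94 FPKM in the siRBCK1 libraries, against 10.85, 10.60 and 8.26 FPKM in the siControl libraries. The groups did not overlap, and the log2 fold change was 0.52 (SE 0.10, limma adjusted p = 0.00114), or 0.31 after removal of the length and GC trend. The other rises were smaller, at 0.44 for NUP37, 0.35 for NUP133, 0.34 for NUP85, 0.26 for NUP160, 0.24 for SEH1L and 0.22 for SEC13. After removal of the length and GC trend the value was 0.30 for NUP37 and 0.16 for NUP133. NUP133 and NUP160 are a stem and an arm subunit, and SEC13 and SEH1L are small subunits shared with other complexes. SEC13, which also coats vesicles leaving the endoplasmic reticulum, was the most abundant of the 35 genes, with means of 143 ± 3.17 FPKM in siRBCK1 and 122 ± 3.10 FPKM in siControl cells (SD, n = 3 each). NUP43 gave a log2 fold change of 0.09 (limma adjusted p = 0.247) and AHCTF1, which encodes the chromatin-binding subunit ELYS, one of 0.00053 (adjusted p = 0.996). After removal of the length and GC trend AHCTF1 was called lower (-0.22, adjusted p = 0.0147). Of the 50-base runs of AHCTF1, 48.05% occur in its pseudogene AHCTF1P1, so its value is uncertain. The NUP160 call was lost with 2 of the 6 libraries left out in turn and on each of the other scales, that of SEH1L with trimmed-mean scaling and without the trend, and that of SEC13 with trimmed-mean scaling.

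In the inner ring, the scaffold around the channel, 2 of 5 genes rose, 0 fell and 3 missed the threshold, close to the 36.8% higher of all tested genes, with a median log2 fold change of 0.18. NUP93, a scaffold subunit, rose most, with 26.15, 27.32 and 26.81 FPKM in the siRBCK1 libraries, against 19.21, 22.77 and 17.19 FPKM in the siControl libraries (log2 fold change 0.43, SE 0.09, limma adjusted p = 0.00214), or 0.25 on the log2 scale after removal of the length and GC trend. NUP35, which contacts the membrane, rose by 0.41, or by 0.23 on that scale. The siRBCK1 libraries of both genes lay above all siControl libraries. By contrast, the large scaffold genes NUP205, NUP155 and NUP188 overlapped between the groups, with log2 fold changes of 0.18, 0.03 and 0.01 (adjusted p = 0.0672, 0.749 and 0.880). NUP155 was called lower after removal of the length and GC trend (-0.18, adjusted p = 0.0113).

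In the channel, NUP62, NUP58 and NUP54 encode the 3 proteins of a complex that forms part of the permeability barrier. Here 2 of the 3 genes were higher, beside 36.8% of all tested genes. NUP62 was at 44.67, 44.30 and 43.42 FPKM in the siRBCK1 libraries, against 30.18, 34.49 and 25.38 FPKM in the siControl libraries. The groups did not overlap, and the log2 fold change was 0.55 (SE 0.09, limma adjusted p = 0.000599), the largest in the channel. Other annotated genes hold 18.95% of the 50-base runs of NUP62. The gene with the most of them is AC011452.1, with 9.49%, which overlaps NUP62 on the same strand and whose level was not examined. IL4I1 also overlaps NUP62 on the same strand and averaged 0.227 FPKM in siRBCK1 and 0.363 FPKM in siControl cells. ATF5 overlaps the span of NUP62 on the opposite strand and averaged 23.0 FPKM in siRBCK1 and 25.4 FPKM in siControl cells. The part of these overlaps in the NUP62 value was not tested. NUP54 rose by 0.37 on the log2 scale (adjusted p = 0.00218), or by 0.23 after removal of the length and GC trend. NUP58 gave a log2 fold change of 0.21 (limma adjusted p = 0.157), and 1 siControl library, replicate 3 at 10.75 FPKM, lay well below the others at 15.44 and 15.43 FPKM. Without that library its log2 fold change was 0.05.

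The membrane ring holds the pore in the envelope, and 3 of its 4 genes were higher, beside 36.8% of all tested genes. The median log2 fold change of the 4 genes was 0.33. POM121, a transmembrane nucleoporin, was at 30.29, 28.47 and 26.32 FPKM in the siRBCK1 libraries, against 20.72, 24.84 and 15.03 FPKM in the siControl libraries. The groups did not overlap, but the siControl libraries spread widely, and the log2 fold change was 0.50 (SE 0.14, limma adjusted p = 0.0116) with all libraries and 0.31 without siControl replicate 3. POM121 shares 25.67% of its 50-base runs with POM121C, a near-identical copy, and 35.05% with any other gene. POM121C itself averaged 21.7 FPKM in siRBCK1 and 11.8 FPKM in siControl cells, so that the copy was higher too and the split of reads between them is uncertain. NDC1, another transmembrane nucleoporin, rose by 0.42, or by 0.21 after removal of the length and GC trend, and AAAS, which encodes ALADIN and is mutated in triple A syndrome, by 0.24, a call lost with quantile normalization and with trimmed-mean scaling. NUP210, the least abundant of the 35 genes, averaged 1.33 ± 0.230 FPKM in siRBCK1 and 1.5 ± 0.329 FPKM in siControl cells (SD, n = 3 each), with a log2 fold change of -0.10 (adjusted p = 0.479).

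In the nuclear basket 3 of 3 genes were higher, beside 36.8% of all tested genes, with a median log2 fold change of 0.50. The groups of like size were near this count, with 2 of 3 in the channel and 3 of 4 in the membrane ring. The 3 basket genes also passed the test on each of the other scales. TPR, the coiled-coil protein that forms the filaments of the basket, was at 8.99, 8.19 and 8.45 FPKM in the siRBCK1 libraries, against 5.61, 6.77 and 4.30 FPKM in the siControl libraries. Its lowest siRBCK1 library lay above its highest siControl library, and its log2 fold change was 0.56 (SE 0.12, limma adjusted p = 0.00304), or 0.34 after removal of the length and GC trend. NUP153, which anchors the basket and binds chromatin and transport receptors, rose by 0.50 (adjusted p = 0.00939), or by 0.32 without siControl replicate 3. NUP50, a cofactor of importins, rose by 0.35 (adjusted p = 0.0021), or by 0.15 after removal of the length and GC trend, and 15.34% of its 50-base runs occur in other annotated genes.

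Of the transport receptors in the set, XPO1 was higher and KPNB1 did not pass the test. XPO1, the exportin for proteins with a leucine-rich export signal and for some RNAs, was at 54.76, 50.35 and 56.77 FPKM in the siRBCK1 libraries, against 42.11, 43.42 and 33.63 FPKM in the siControl libraries. The groups did not overlap, and the log2 fold change was 0.44 (SE 0.09, limma adjusted p = 0.00215), or 0.21 after removal of the length and GC trend. KPNB1, the importin beta that carries most classical import cargo, was at 82.56, 77.97 and 78.47 FPKM in siRBCK1 libraries, against 70.47, 78.45 and 68.18 FPKM in siControl libraries, with overlapping groups and a log2 fold change of 0.14 (adjusted p = 0.075).

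**Figure D3:**
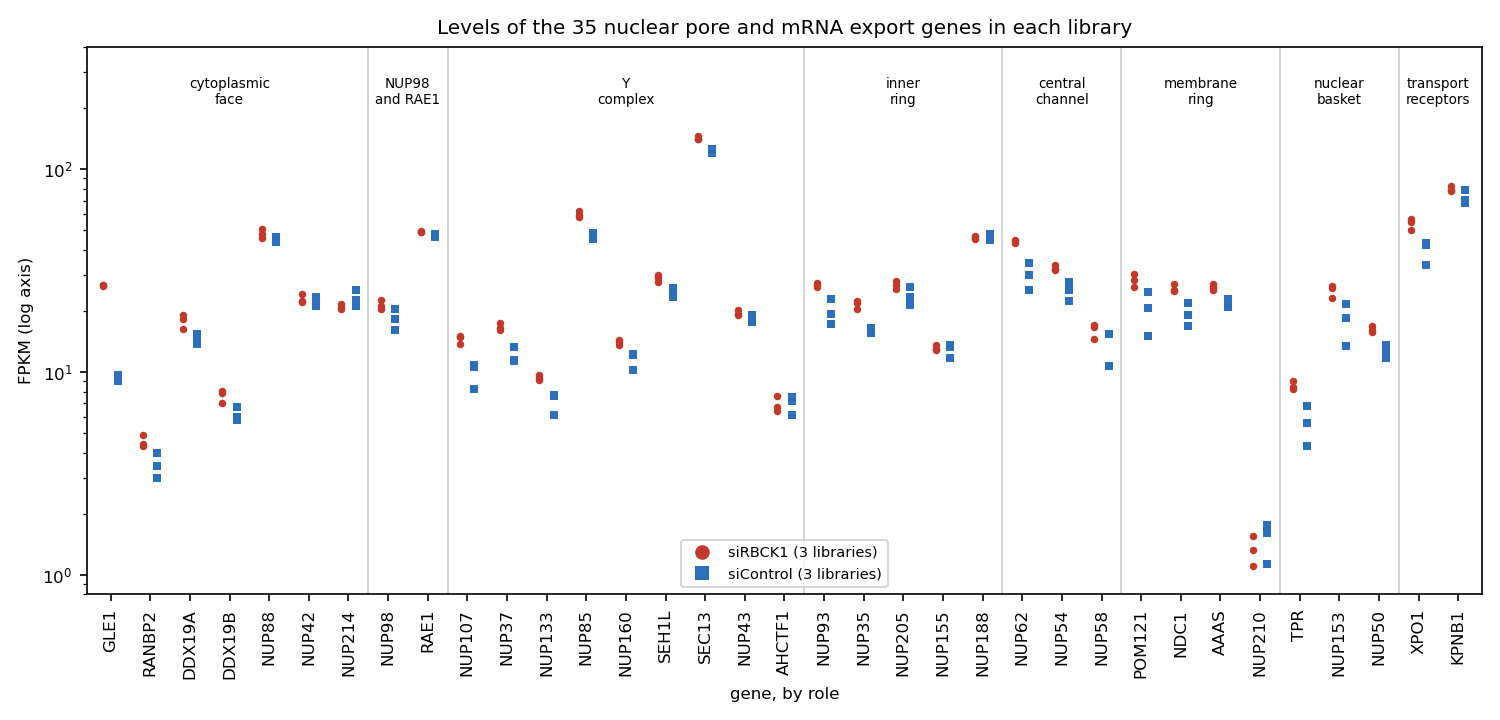
Level of each of the 35 genes in FPKM (y axis, log scale) in the 3 siRBCK1 libraries (red circles) and the 3 siControl libraries (blue squares), by role. Mean levels run from NUP210 at 1.33 FPKM in siRBCK1 and 1.5 FPKM in siControl cells up to SEC13 at 143 and 122 FPKM, and GLE1 shows the widest gap between the groups.

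The promoters of the set were read for short motifs, since many of these genes rose together. Of the 35 genes, 31 had an entry in the RefSeq promoter table (GRCh38.p14), and GLE1, NUP43, AHCTF1 and KPNB1 had none. The 250 bases before each annotated start were searched on both strands, and a gene counted once if any of its starts had a match. The 31 genes had 42 such windows, and the shares were not adjusted for the number of windows per gene. The letters CCGGAAG, the core recognized by ETS factors (CTTCCGG on the other strand), occurred in 14 of the 31 genes, or 45.2%, against 20.4% of 9211 tested genes with an entry. They occurred in 11 of the 22 genes that were higher and in 3 of the 9 others. GGGCGG, the GC box, occurred in 51.6% of the 31 genes against 76.6% of tested genes, and CCAAT in 38.7% against 41.9%. GGAATG, the core bound by TEAD factors, occurred in 3 of the 31 genes (NUP35, NUP160 and NUP93), or 9.7%, against 13.1%, and TATAAA in 1 (NUP93), or 3.2%, against 7.5%. The ETS and TEAD letters do not contain each other. A match is a description of letters and not a site in use.

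For 3 genes the windows are shown with the ETS letters in capitals, read along the strand of the gene. NUP107, the largest rise of the Y complex, has its window at chr12:68686728-68686977 on the plus strand. NUP54 of the channel has its window at chr4:76148398-76148647 on the minus strand and holds 2 matches, one in each direction. NUP214, which did not rise, has a window at chr9:131125336-131125585 on the plus strand, which holds 1 match. A second window of NUP214, at chr9:131189889-131190138 and not shown, holds 0 matches.
NUP107: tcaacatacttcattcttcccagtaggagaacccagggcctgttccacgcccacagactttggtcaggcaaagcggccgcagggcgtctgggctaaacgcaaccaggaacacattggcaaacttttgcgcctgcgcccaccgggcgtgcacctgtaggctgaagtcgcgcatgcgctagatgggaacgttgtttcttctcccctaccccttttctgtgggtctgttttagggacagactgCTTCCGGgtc
NUP54: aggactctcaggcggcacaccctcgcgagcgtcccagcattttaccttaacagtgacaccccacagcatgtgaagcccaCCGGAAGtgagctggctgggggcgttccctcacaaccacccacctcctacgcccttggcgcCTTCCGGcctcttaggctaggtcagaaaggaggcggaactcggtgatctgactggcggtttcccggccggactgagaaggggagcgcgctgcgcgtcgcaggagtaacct
NUP214: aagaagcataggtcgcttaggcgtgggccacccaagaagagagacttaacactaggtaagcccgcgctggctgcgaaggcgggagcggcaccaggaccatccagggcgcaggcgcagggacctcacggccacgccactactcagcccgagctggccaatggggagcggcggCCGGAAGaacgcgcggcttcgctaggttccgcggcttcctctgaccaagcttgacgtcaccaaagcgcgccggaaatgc
The letters thus occur before genes of the set that rose and before one that did not.

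Other genes of nuclear transport were looked at in the same fit, from lists of their own. Of 90 such genes 89 were tested, since SYNE1 was below the expression minimum. Of these, 44 rose, 14 fell and 31 missed the threshold, with a median log2 fold change of 0.18, against 36.8% higher and 17.1% lower among all tested genes. After removal of the length and GC trend 28 were higher and 19 lower, beside 25.3% higher and 25.5% lower of all tested genes. Unlike the pore genes, these lists held falls on the deposited values, at a share near the 17.1% of all tested genes.

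Genes for loading mRNA onto its export receptor were mostly higher on the deposited values. Their counts stand beside 36.8% higher and 17.1% lower of all tested genes, and the falls did not exceed that share. Of 19 genes for TREX, the complex that couples transcription to export, and its adaptors, 11 were higher and 3 lower. THOC3, a TREX subunit, averaged 85.5 ± 3.25 FPKM in siRBCK1 and 51.8 ± 6.71 FPKM in siControl cells (SD, n = 3 each; log2 fold change 0.72, limma adjusted p = 7.19e-05), and RBM15B, an RNA-binding adaptor, rose by 0.64. NCBP2, the small subunit of the cap-binding complex, fell by 0.35 and DDX39A, a TREX helicase, fell by 0.21. Of the 8 genes for the mRNA export receptor and TREX-2, 6 were higher and 1 lower, with rises of 0.51 for NXT1, the partner of NXF1, and 0.49 for PCID2, a TREX-2 subunit, and a fall in CETN2, a centrin, which fell by 0.30.

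Genes for poly(A) binding, for inositol hexakisphosphate and for translation factors linked to GLE1 moved in both directions. So did all tested genes, with 36.8% higher and 17.1% lower. Of 8 genes for poly(A) binding and for inositol hexakisphosphate, 5 were higher and 1 lower. IPPK, the kinase that makes inositol hexakisphosphate, averaged 6.71 ± 0.458 FPKM in siRBCK1 and 4.68 ± 0.865 FPKM in siControl cells (SD, n = 3 each; log2 fold change 0.45, limma adjusted p = 0.00632), and PABPN1, the nuclear poly(A)-binding protein, rose by 0.55. ITPK1, an earlier kinase of inositol phosphate synthesis, fell by 0.33. Of 9 genes for translation factors linked to GLE1, 5 were higher and 2 lower. EIF3F, a subunit of initiation factor eIF3, rose by 0.62 and DDX3X, a DEAD-box helicase, by 0.42, or by 0.25 without siControl replicate 3, a call lost after removal of the length and GC trend, while ABCE1, which recycles ribosomes, fell by 0.23 and GSPT1, the release factor eRF3a, fell by 0.20. Each of these log2 fold changes was below the 1.42 of GLE1.

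For genes that carry proteins through the pore, the counts stand beside 36.8% higher and 17.1% lower of all tested genes, and those of the importins lay near these shares. Of 7 genes of the Ran cycle, which gives transport its direction, 2 were higher, RANBP3 by 0.53 and RCC1, the exchange factor for Ran, by 0.42. Of 16 importin genes, 6 were higher and 2 lower, with rises of 0.48 for TNPO2 and 0.48 for IPO11, and IPO8 fell by 0.25 and KPNA2 fell by 0.22, the last a call lost with quantile normalization. Of 6 exportin genes, 3 were higher and 1 lower. CSE1L, which returns importin alpha to the cytoplasm, averaged 151 ± 3.86 FPKM in siRBCK1 and 85.7 ± 6.72 FPKM in siControl cells (SD, n = 3 each; log2 fold change 0.81, limma adjusted p = 4.29e-06). XPO7 rose by 0.26, a call lost on each of the other scales, and XPOT, the tRNA exportin, fell by 0.16 with an adjusted p of 0.0498 from limma, a call lost with 5 of the 6 libraries left out in turn, with a replicate block (adjusted p = 0.0944) and without a filter (0.0543).

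Of 16 tested genes for lamins and other envelope proteins or pore-associated proteins, 6 were higher and 4 lower, near the 36.8% higher of all tested genes and beside 17.1% lower. LMNB1, which encodes lamin B1 of the nuclear lamina, averaged 34.5 ± 1.19 FPKM in siRBCK1 and 18.3 ± 2.86 FPKM in siControl cells (SD, n = 3 each; log2 fold change 0.89, limma adjusted p = 4.23e-05), and LMNB2 rose by 0.75. MAD1L1, a spindle checkpoint protein that binds the basket, fell by 0.40, and BANF1, which links chromatin to the envelope, fell by 0.29, a call lost after quantile normalization.

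**Figure D4:**
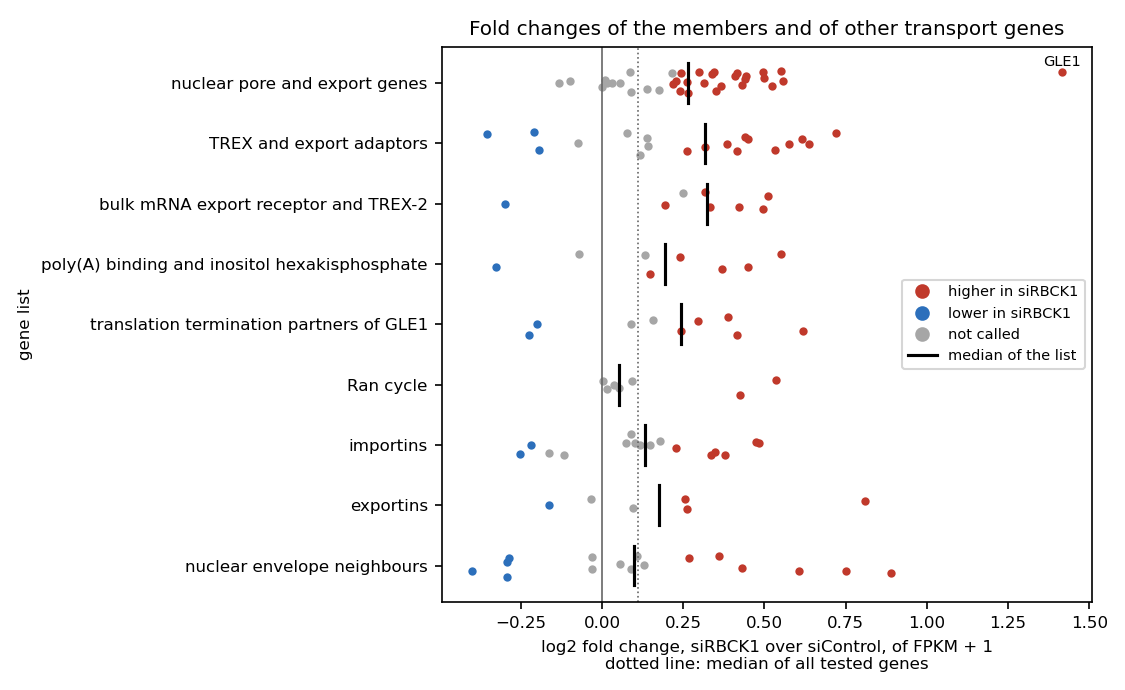
Log2 fold change of FPKM + 1, siRBCK1 over siControl (x axis), of each gene of the nuclear pore set and of the lists of other transport genes (y axis), in red where higher, blue where lower and grey where not called at an adjusted p of 0.05, with the median of each list as a bar and that of all tested genes as a dotted line at 0.11. GLE1 at 1.42 lies to the right of all other genes plotted, of which LMNB1 at 0.89 is the highest.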

How the data were processed

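The authors sequenced RNA of MDA-MB-231 cells with BGI's system and deposited, for each of 6 libraries, FPKM of the same 17149 genes, on GRCh38 per the submitters' processing notes. How reads were aligned, quantified and annotated is not given in the sources used here. Inside the table of siRBCK1 replicate 2 the column is headed as replicate 1, but only 0.539% of the tested genes had identical values, so both were kept. Depth is unknown.

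FPKM were taken to the log2 scale after adding 1. Genes reaching 1 FPKM in 3 libraries or more (11135) entered a comparison of siRBCK1 with siControl in limma (version 3.58.1, R version 4.3.3) using its trend option and no block, two-sided, with Benjamini-Hochberg adjustment over all tested genes. This scale understates fold changes of low genes. The steps were tested on simulated data. The list members, the other lists and the naming rule were chosen with earlier results of these data known. Values in each library were given for GLE1, for the largest rise and largest fall of each role group past the test without overlap, for members with a near-identical copy, and for some others chosen after their values were seen (NUP214, NUP42, KPNB1 and NUP58). From each other list, up to 2 rises and 2 falls were named.

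Alternatives were adding 0.1 instead of 1, testing without a filter or with a minimum of 5 FPKM, quantile normalization, scaling by trimmed means, removal of each library's trend with transcript length and GC content (known for 99.45% of tested genes), a replicate block and each library left out. Shared sequence was counted as runs of 50 bases of the longest GENCODE transcript found in transcripts of other genes, read in the same direction only.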

Additional observations from a re-analysis of the deposited data

How the results depend on the processing

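GLE1 stayed higher and RBCK1 lower at an adjusted p under 0.05 from limma in each alternative, and with each library left out GLE1 ranged from 1.39 to 1.44 and RBCK1 from -0.63 to -0.52. With each library left out, 19 to 25 of the 35 genes were higher and 0 to 1 lower, and 19 of the 23 called genes kept the call each time, the others being DDX19B, NUP160, NUP98 and RANBP2. The median of the 35 genes ranged from 0.25 to 0.31. The other transport genes gave 38 to 46 higher and 9 to 15 lower, with 9 lower without siControl replicate 1 or siRBCK1 replicate 2. A pseudocount of 0.1 and a filter of 5 FPKM, which dropped RANBP2 and NUP210, ended no call among the genes still tested. Without a filter 20 were higher, and the calls of NUP98 (adjusted p = 0.0862 from limma), RANBP2 (0.0515) and POM121 (0.0545) were lost.

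The scaling decided which genes were called lower. The number of the 35 genes that were lower was 1 with quantile normalization, 1 with trimmed-mean scaling and 3 after removal of the length and GC trend, where AHCTF1 (-0.22), NUP155 (-0.18) and NUP214 (-0.26) were called, and 28 other transport genes were then higher. Genes that were not called on the deposited values changed sign. After quantile normalization the log2 fold changes were -0.095 for NUP42, -0.035 for NUP188, -0.15 for AHCTF1, -0.029 for NUP43 and -0.093 for NUP155. After trimmed-mean scaling they were -0.091 for NUP42, -0.098 for NUP188, -0.096 for AHCTF1, -0.020 for NUP43, -0.021 for NUP88, -0.054 for RAE1 and -0.074 for NUP155. After removal of the trend they were -0.14 for NUP42, -0.016 for NUP205, -0.098 for NUP188, -0.22 for AHCTF1, -0.10 for NUP43, -0.048 for KPNB1, -0.037 for NUP88, -0.074 for RAE1, -0.18 for NUP155 and -0.028 for NUP58. With a library left out the values ranged from -0.027 to 0.038 for NUP42, from -0.0060 to 0.042 for NUP188, from -0.074 to 0.051 for AHCTF1 and from -0.032 to 0.065 for NUP155. The cause of these changes was not tested.

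The same replicate numbers occur in both groups, but same-numbered libraries did not deviate together (correlations of -0.06, -0.187 and -0.038). Pairs with unlike numbers ranged from -0.151 to 0.229. With 3 libraries per group these values cannot show whether the libraries were prepared in pairs. With a replicate block 23 of the 35 genes were higher and 0 lower, and of the other transport genes 43 were higher and 12 lower, with GLE1 at 1.42 (adjusted p = 2.2e-06 from limma), RBCK1 at -0.59, and 3812 of all tested genes higher and 1739 lower. The unknown depth and the 3 libraries per group limit what small differences can show.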
